A study of Mus musculus with 5 samples.

Results

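The regions described here are stretches of the mouse genome that were called in an immunoprecipitation of CYFIP1 and that the deposited annotation placed on no gene. RNA was pulled down with anti-HA antibody from hippocampi of C57BL/6 knock-in mice numbered 1 and 2, labelled as knock-in; the series names Cyfip1 as the protein studied. The controls were mouse IgG on the same 2 knock-in numbers and anti-HA on 1 wild-type C57BL/6 library, so 5 libraries formed groups of 2, 2 and 1; ages are not given in the sources used here. Each deposited list set 1 anti-HA library against 1 control library and gave the reads of both in every called region. The lists are named below IgG mouse 1, IgG mouse 2, wild type mouse 1 and wild type mouse 2, and values in series of 4 follow that order. Members were all unique regions with no row inside, across an end of, or around a gene, so that they lay upstream or downstream of the nearest gene or had no gene named at all. The rule left out 1 region, on an exon of Nhsl1, that was in all 4 lists. This gave 146 of 4191, 85 of 1920, 178 of 5355 and 230 of 5362 regions, or 449 of 11760 unique regions. The members made up 3.48%, 4.43%, 3.32% and 4.29% of the lists.

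CYFIP1 is a cytoplasmic protein that binds the fragile X protein FMRP and the cap-binding factor eIF4E, and it is also a subunit of the WAVE complex, which drives actin branching. Through the first of these roles it is known as a brake on translation near synapses. RNA outside annotated genes can come from unannotated long noncoding RNAs, from transcript ends that an annotation cuts short, from copies of processed mRNAs (pseudogenes) and from repeats. Norad, which features below, is an abundant cytoplasmic long noncoding RNA known for repeated binding sites of the Pumilio proteins, repressors of mRNA stability and translation.

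The member with the most HA reads of those that lay on an exon of the GENCODE M21 annotation was inside Norad, listed there as 2900097C17Rik on the minus strand of GRCm38 at chr2:156388065-156392979, a single exon of 4915 bases. The deposited annotation ended this gene at chr2:156391831-156392979, 1149 bases at its 5′ end, so the remainder counted as outside a gene. The letters TGTANATA, the core of the Pumilio recognition element, were searched on the sense strand of the transcript and on both strands of the member. They occurred 11 times on the sense strand of the Norad transcript. The 2460 bases of the member of IgG mouse 1 held 5 of these matches, and 0 on the other strand. The 300 bases with most of these matches, chr2:156390485-156390784 on the minus strand, are shown with the remaining pair of sites to let a reader see the motifs, which are in capitals (GENCODE M21 transcript sequence, 5′ to 3′).
Norad window: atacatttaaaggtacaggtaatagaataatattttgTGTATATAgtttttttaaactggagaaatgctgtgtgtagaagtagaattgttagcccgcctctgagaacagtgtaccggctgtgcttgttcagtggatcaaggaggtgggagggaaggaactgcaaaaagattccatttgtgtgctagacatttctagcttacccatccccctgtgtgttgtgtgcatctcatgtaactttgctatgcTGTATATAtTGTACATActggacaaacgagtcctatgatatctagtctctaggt
Norad site 4 (chr2:156390208-156390237): cagtactactaTGTATATAggggacaaatt
Norad site 5 (chr2:156389436-156389465): cagtgagaaagTGTACATAacggattggta
Of 15971 genes with a transcript at least that long, 2708 held the motif in the first 2460 bases of their longest transcript and 4863 (30.4%) in the last 2460. As many as 5 matches were found in 7 genes (0.0438%), Norad included, by the first window and 26 genes (0.163%) by the last. The GC content of the member was 43.5%.

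Norad was covered by regions of both mice over IgG, in its unannotated part as well as at its annotated end. In the unannotated part, IgG mouse 1 held 460 HA against 76 IgG reads (chr2:156388351-156390810) and IgG mouse 2 held 503 HA against 171 IgG reads (chr2:156388401-156390800). HA reads were above IgG reads in both mice and were similar in the pair of HA libraries, whereas IgG reads were higher in mouse 2. The annotated end held 384 HA against 74 IgG reads in mouse 1 (chr2:156391426-156393065), with 361 against 75 in mouse 2 (chr2:156391401-156393000). Read density in the unannotated part was 187 and 210 HA reads per kb, against 30.9 and 71.3 IgG reads per kb. At the annotated end it was 234 and 226 HA reads per kb, against 45.1 and 46.9. Folds here are the ratio of HA to control reads divided by the median ratio of all regions of the list with at least 20 reads in both libraries together. That median ratio was 2.89, 0.947, 1.41 and 1.75; the pooled ratio of all regions as the scale shifts every log2 fold of a list by -0.42, -1.09, 0.73 and 0.93. By this scale the unannotated part of Norad stood at 2.09-fold (95% counting interval 1.64 to 2.70) in mouse 1 and 3.11-fold (2.61 to 3.72) in mouse 2, with a mean of 1.35 ± 0.40 on the log2 scale (SD, n = 2). The annotated end stood at 1.79-fold and 5.08-fold, a mean of 1.59 ± 1.06 on the log2 scale (SD, n = 2). By the pooled ratio the unannotated part was still above 1, at 1.57-fold and 1.46-fold. The parts differed by less than the spread between mice. No test was made, since the regions of the mice had different ends. RefSeq lists a further long noncoding RNA, Gm14170, over the same member, and reads of the pair cannot be told apart without strand. The wild-type lists held 0 regions on chromosome 2, of members and others alike, so Norad has no value over wild type.

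**Figure D1:**
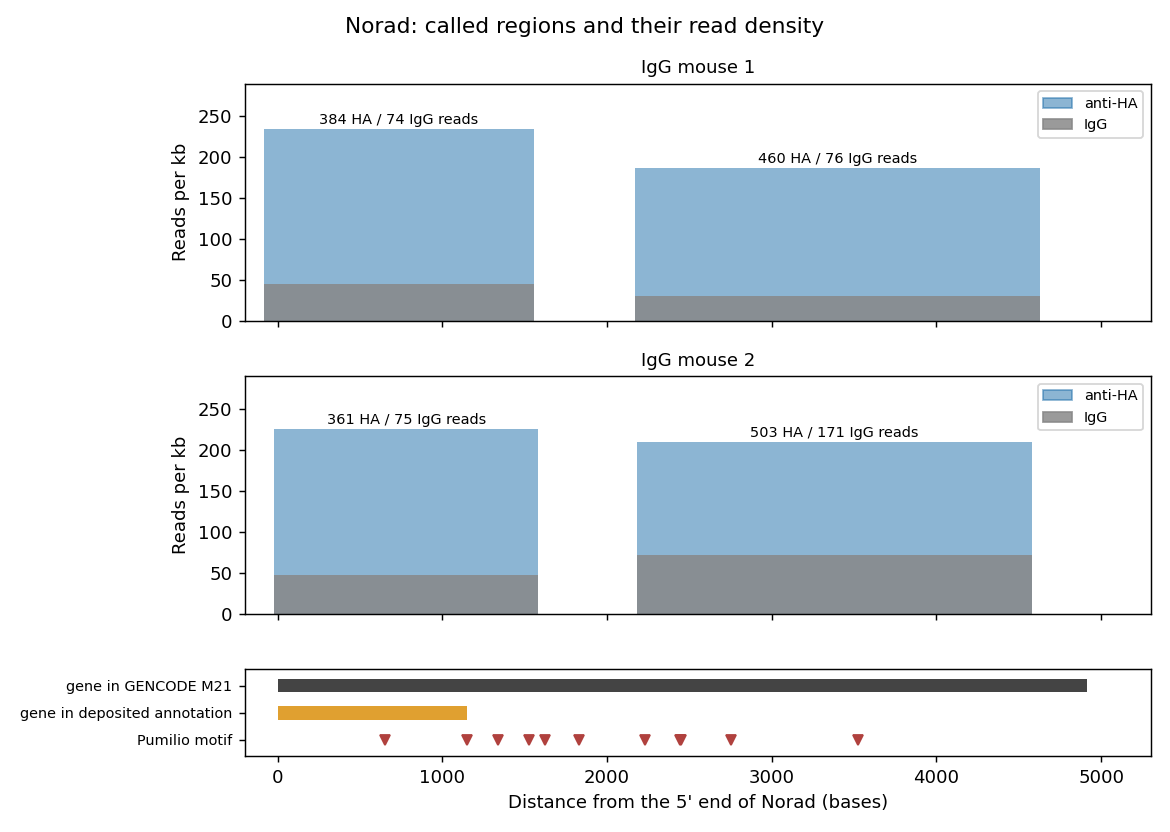
Reads per kb (vertical axis) of the called regions along Norad (horizontal axis, bases from its 5′ end) in both IgG lists, with anti-HA in blue and IgG in grey drawn over it from 0, and below them the extent of the gene in each annotation and the Pumilio motifs as triangles. The regions from base 2170 onward lay outside the deposited gene, which is 1149 bases long, and held 460 and 503 HA reads.

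Reads outside genes were concentrated in a few places. Members held 5598, 3546, 16151 and 15863 HA reads, or 5.62%, 5.54%, 10.5% and 9.51% of the HA reads in all regions of their list. The 5 richest regions held 79.4%, 87.3%, 93.0% and 90.8% of these. The median member held 4, 3, 4 and 4 HA reads, against 5, 7, 5 and 5 in regions on genes. Controls had no read in 52.7%, 36.5%, 52.8% and 55.2% of members, against 34.1%, 14.1%, 27.4% and 27.9% of regions on genes. Library totals are unknown, because the lists give reads inside called regions only; intervals cover counting error and not duplicates made by PCR. Tissue was bulk hippocampus, in which more cells of a type and more RNA per cell cannot be told apart. Of 36 marker genes of hippocampal cell types, 8 carried a region in any list. Among them were Slc17a7, Prox1 and Neurod6 of neurons (3 of 7) and Slc1a2, Slc1a3 and Aldh1l1 of astrocytes (3 of 5). Markers of interneurons, microglia, endothelium or choroid plexus carried 0. Chromosomes 1, 4, 6, 12 and 15 held 90.2%, 89.8%, 89.2% and 94.5% of all regions. A marker on another chromosome could thus lack a region whatever its RNA, and the zeros do not show that a cell type was absent.

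**Figure D2:**
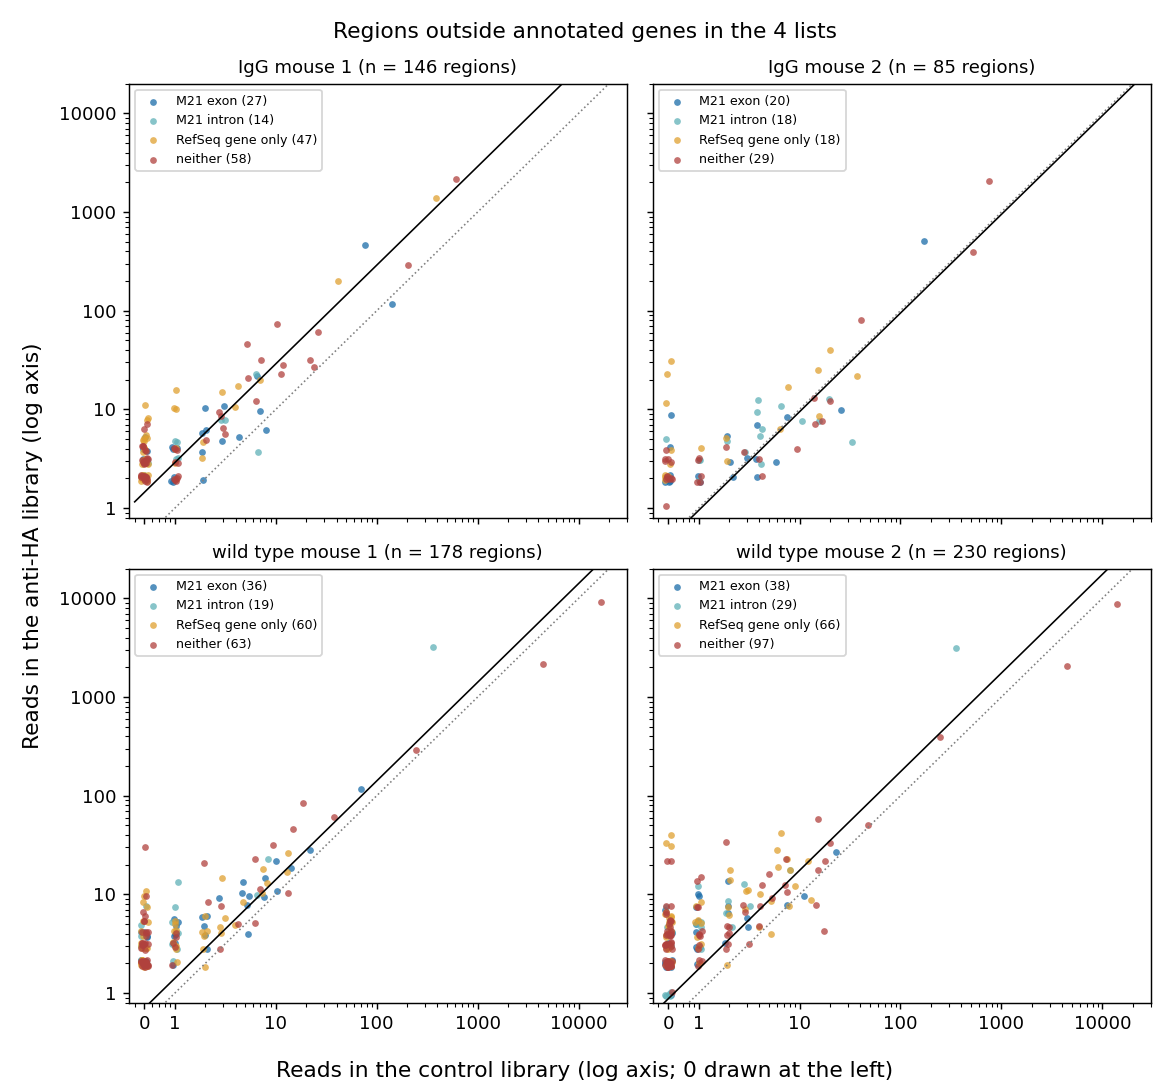
Each point is 1 member, with control reads on the horizontal and anti-HA reads on the vertical log axis, in the 4 lists; colours give its annotation in GENCODE M21 and RefSeq, the solid line is the list's median ratio and the dotted line equal reads (points under 20 reads are spread slightly for view). Most members sit at a few reads on the left, and a handful of points above 200 reads hold most of the signal.

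The richest place outside genes was on chromosome 3, in wild-type lists alone. It held 9240 HA against 16757 wild-type reads in mouse 1 (chr3:5860336-5860745), with 8738 against 14130 in mouse 2 (chr3:5860411-5860920). The wild-type library was above the knock-in libraries in both lists, at 0.390-fold (0.381 to 0.401) and 0.353-fold (0.344 to 0.363), a mean of -1.43 ± 0.10 on the log2 scale (SD, n = 2; the lists share the wild-type library). The place lay in no gene of GENCODE M21 or RefSeq. The M21 gene closest to it was the long noncoding RNA Gm37350, 20087 bp away from the region of mouse 1. It was the only region on chromosome 3 in each wild-type list, and the IgG lists had 0 there.

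A 200-base region on chromosome 8, chr8:15519801-15520000, was called with identical ends in all 4 lists. HA reads were 2172 in mouse 1 and 2083 in mouse 2. IgG reads there were 615 and 756, and wild-type reads were 4401 in the list of mouse 1 and 4441 in that of mouse 2, although both lists name the same library. The knock-in HA libraries thus lay above IgG and below the wild-type HA library in both mice. Folds were 1.22 (1.12 to 1.34) and 2.91 (2.68 to 3.17) over IgG, and 0.349 (0.332 to 0.368) and 0.268 (0.254 to 0.282) over wild type. By the pooled ratio they were 0.913 and 1.37 over IgG, so mouse 1 changed sides, and 0.580 and 0.509 over wild type. It was the only region on chromosome 8 in each list and lay in no gene of either reference. The closest coding genes in M21 were Csmd1, 372537 bp away, and Myom2, 386260 bp away.

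On chromosome 14 the anti-HA signal was higher in the knock-in than in the wild type. The 200-base region chr14:104715801-104716000 held 3197 HA against 357 wild-type reads in mouse 1, with 3141 against 354 in mouse 2. Both knock-in libraries were far above the wild type, by 6.34-fold (5.68 to 7.09) and 5.07-fold (4.54 to 5.68), a mean of 2.50 ± 0.23 on the log2 scale (SD, n = 2). It lay in an intron of D130009I18Rik, a long intergenic noncoding RNA of M21 and RefSeq. The snoRNA gene Gm25724, given as its nearest gene, was 86741 bp away. No region of chromosome 14 was in the IgG lists, so the excess over wild type has no counterpart over IgG.

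The other places with at least 200 reads follow. On chromosome 18 a 200-base region of IgG mouse 1 (chr18:68692001-68692200) held 1403 HA against 383 IgG reads, 1.27-fold (1.13 to 1.42), over the RefSeq long noncoding RNA Gm30821; by the pooled ratio it stood at 0.947-fold. No region of chromosome 18 was called in the other lists. On chromosome 11, chr11:109011666-109012095 held 202 HA against 41 IgG reads in mouse 1, 1.70-fold (1.21 to 2.44), on the RefSeq long noncoding RNA Gm36876. IgG mouse 2 had 52 regions on chromosome 11, and 0 of them were members. An unplaced scaffold, Un_JH584304, held 116 HA against 141 IgG reads in mouse 1, 0.284-fold (0.220 to 0.366), on an exon of the M21 coding gene AC149090.1. Over wild type the same region held 116 HA against 70 reads in mouse 1, 1.17-fold (0.865 to 1.60), so it was low over IgG while its interval over wild type included 1.

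Between Gm26615 and Wasf2, which encodes a WAVE family protein, a 5250-base region was read in all libraries. It lay at chr4:133096001-133101250 in mouse 1, with 292 HA, 203 IgG and 247 wild-type reads, and at chr4:133095501-133101250 in mouse 2, with 390 HA, 524 IgG and 247 wild-type reads. HA reads lay above IgG in mouse 1 and below it in mouse 2. Relative to the list medians it was low in all 4 lists, at 0.497-fold, 0.786-fold, 0.837-fold and 0.902-fold, although the interval of the last included 1 (0.767 to 1.06). By the pooled ratio the values over wild type turned to 1.39-fold and 1.71-fold. The region ended 29255 bp before Wasf2 and began 6355 bp after Gm26615 in mouse 2, in no gene of either reference.

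**Figure D3:**
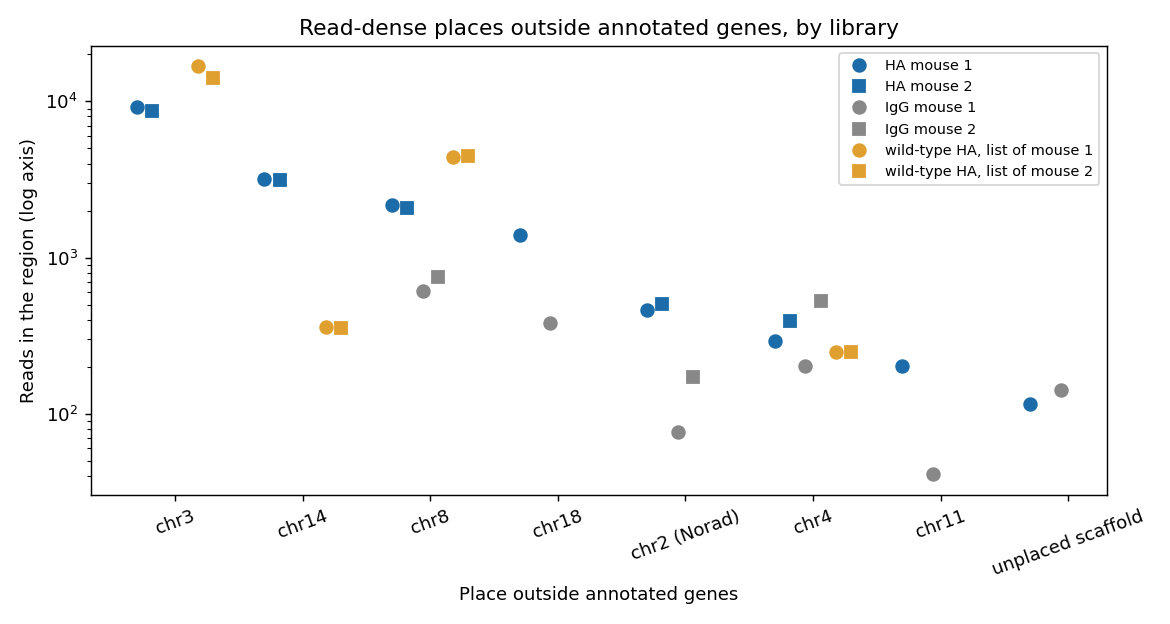
Reads of each library (vertical log axis) at the places with at least 200 reads in a list, anti-HA in blue, IgG in grey and wild-type anti-HA in orange, with circles for mouse 1 and squares for mouse 2 or their lists. Wild-type reads lie above knock-in HA reads on chromosomes 3 and 8 and below them on chromosome 14, where 357 and 354 stand against 3197 and 3141.

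Relative to the other regions of their lists, members had few high folds over IgG and more over wild type, mostly at low reads. Members with at least 20 reads numbered 19, 19, 23 and 30. Their median folds were 1.27, 0.786, 1.24 and 1.29, beside 1 for all regions of a list by construction. Those of the second mouse turned with the read minimum: in IgG mouse 2 the median was 1.36 with at least 10 reads and 2.10 with at least 50, and in wild type mouse 2 it was 0.787 with at least 50. Over IgG, 0 members of mouse 1 reached 4-fold, where 17.2% of all regions with at least 20 reads did. In IgG mouse 2 there were 2, with a background of 21.8%. Over wild type, 3 of 23 members reached 4-fold in mouse 1 (13.0%) against a background of 1.64%, and 8 of 30 in mouse 2 (26.7%) against 4.31%; with at least 50 reads, 1 and 1 did. The control had no read for 2 of the 2 in IgG mouse 2, 1 of the 3 in wild type mouse 1 and 5 of the 8 in wild type mouse 2. For these, a floor of 3 counts stood in for the control. Their intervals start below the fold given and have no upper end. At 0.25-fold or less stood 0, 1, 0 and 1 members, with backgrounds of 1.63%, 0.794%, 4.32% and 4.75%. By the authors' deposited table, the adjusted p was below 0.05 for 76.7%, 89.4%, 89.3% and 87.0% of members and for 64.6%, 87.3%, 82.3% and 78.8% of all regions.

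Among the highest folds over wild type were a place near a vomeronasal receptor gene and regions on RefSeq pseudogenes. A place on chromosome 6 near Vmn2r19, a vomeronasal receptor gene 11064 bp away, held 21 HA against 2 wild-type reads in mouse 1 (chr6:123347601-123349800), with 34 against 2 in mouse 2 (chr6:123347601-123350800). Both mice were above the wild type, at 7.44-fold (1.82 to 65.4) and 9.71-fold (2.49 to 83.5), with wide intervals because the control held 2 reads. It lay in no gene of either reference. With chromosome 14, it was the only place past 4-fold over wild type in both mice.

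In mouse 2, a region on the RefSeq pseudogene Gm2035 (chr12:87916001-87917800) held 31 HA reads and 0 reads in IgG and in the wild type. With the floor of 3 control counts this was 10.9-fold (interval from 8.36) over IgG and 5.90-fold (from 4.52) over wild type. On the RefSeq pseudogene Gm11847, chr4:12235001-12237750 held 23 HA reads, 0 IgG and 7 wild-type reads. This was 8.10-fold over IgG by the floor (from 6.07) and 1.88-fold over wild type. A region on the RefSeq long noncoding RNA Gm35739, chr15:76559266-76566960, held 40 HA reads, 20 IgG and 0 wild-type reads. Its folds were 2.11 over IgG and, by the floor, 7.62 over wild type (from 5.91). Thus IgG and wild type differed as controls for Gm11847 and Gm35739. Over Gm11847, mouse 1 had a region of 14 HA against 3 IgG reads (chr4:12234751-12238000), and for the other two it had no member. The RefSeq pseudogene Gm18221 (chr6:12869801-12874600) held 33 HA against 0 wild-type reads in mouse 2, 6.29-fold by the floor (from 4.83). Mouse 1 held 10 and 0 there over a shorter region. In mouse 1, chr1:102392786-102394835 held 30 HA against 0 wild-type reads, 7.08-fold by the floor (from 5.41).

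Over IgG in mouse 1 the highest member was chr6:47769001-47772800, 8824 bp from the Y RNA gene Rny3, with 46 HA against 5 IgG reads (3.18-fold, 1.27 to 10.3). Over wild type it held 46 and 15 reads in mouse 1 (2.17-fold), and an overlapping region of mouse 2 held 22 and 19 (0.662-fold), so the mice fell on either side of the median. A place on chromosome 2 apart from Norad was above the median over IgG in both mice. It held 74 HA against 10 IgG reads in mouse 1 (chr2:22744751-22744955, 2.56-fold, 1.32 to 5.55), with 81 against 41 in mouse 2 (chr2:22744801-22745000, 2.09-fold, 1.42 to 3.12), a mean of 1.21 ± 0.21 on the log2 scale (SD, n = 2). By the pooled ratio mouse 2 stood at 0.983-fold. It lay in no gene of either reference, 11029 bp from 1700092C17Rik.

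Further low folds came from fewer reads than those of chromosomes 3, 4 and 8. In IgG mouse 2 the lowest was chr12:24816001-24816600 in an M21 intron 14999 bp from Mboat2, with 5 HA against 33 IgG reads (0.160-fold, 0.0488 to 0.413). In wild type mouse 2 it was chr4:78774001-78774250, 75073 bp from Gm11262, with 4 HA against 17 wild-type reads (0.134-fold, 0.0329 to 0.412). The scaffold 4_GL456350_random held 27 HA against 24 IgG reads over 42840 bases in mouse 1, 0.389-fold. On chromosome Y, a place 32204 bp from Gm21861 (chrY:58846801-58852800) held 61 HA reads in mouse 1 with 26 IgG and 38 wild-type reads, 0.811-fold and 1.14-fold, and 50 HA with 48 wild-type reads in mouse 2, 0.595-fold.

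Members of both mice overlapped at 18 regions of mouse 1 (12.3%) and 19 of mouse 2 (22.4%) over IgG, and the wild-type lists shared 53 (29.8%) and 55 (23.9%). For regions on genes the shares were 22.3% and 51.4% in the IgG lists, then 52.7% and 54.3% in the wild-type lists; the difference was not tested. The chromosomes covered differed between lists: IgG mouse 1 had 838 regions on chromosome 1 and 615 on chromosome 6, where IgG mouse 2 had 0 and 4, and wild type mouse 1 had 545 on chromosome 7 against 36 in mouse 2. Every list covered chromosomes 12 and 15 by over 500 regions each. There, members overlapped for 22.4% and 18.4% in the IgG lists, then for 23.9% and 21.6% in the wild-type lists. The share for regions on genes was not computed on these chromosomes, so the member shares have no background there. In pairs with at least 20 reads in each mouse, 3 of 6 stood higher than the list median in each mouse over IgG and 1 stood lower in each; over wild type 6 of 15 were above and 5 below. Over IgG, 0 of 6 pairs reached 4-fold in both mice, and over wild type 2 of 15 did. These pairs were counted for members only, so no share of all regions stands beside the counts.

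**Figure D4:**
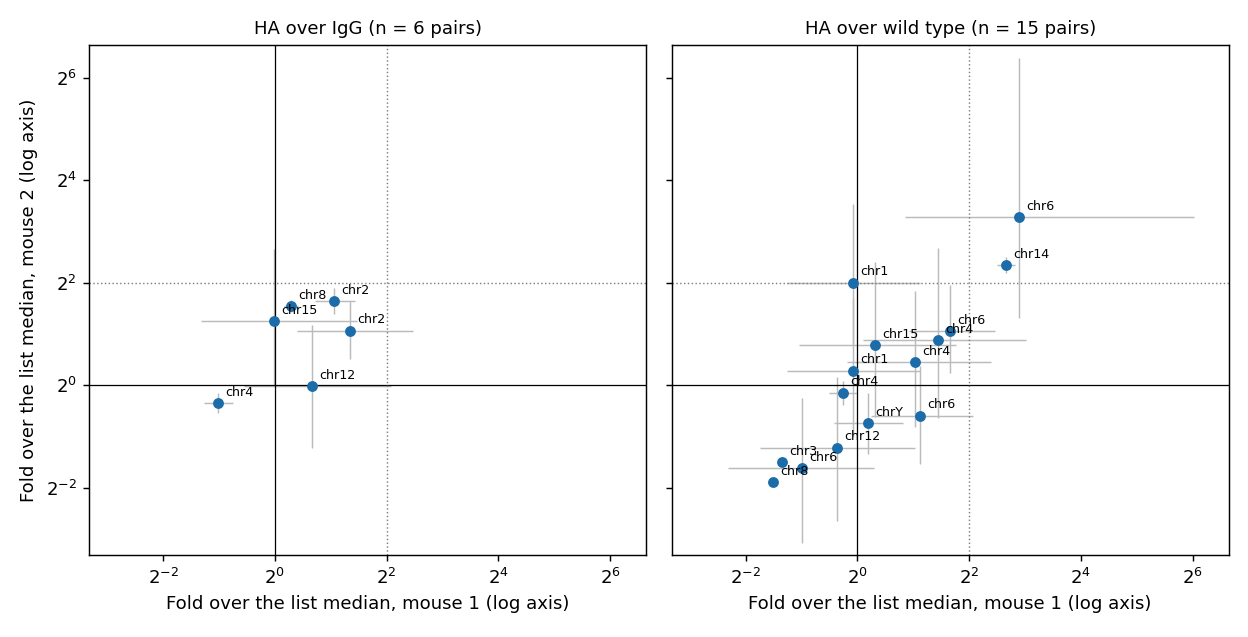
Fold over the list median in mouse 1 (horizontal log axis) and mouse 2 (vertical log axis) for overlapping members with at least 20 reads in each mouse, 6 pairs over IgG and 15 over wild type, with 95% counting intervals and the chromosome beside each point; solid lines mark the median and dotted lines 4-fold. The chromosome 14 and chromosome 6 places are the pairs beyond 4-fold in both mice, and both wild-type lists use the same control library.

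Among the other pairs over wild type, a place without a gene in either reference at chr6:130955001-130961800 held 85 HA against 19 wild-type reads in mouse 1, with 58 against 16 in mouse 2, 3.17-fold and 2.07-fold. Its intervals were above 1 in both mice (1.91 to 5.52 and 1.17 to 3.86). An M21 intron 1999 bp from the olfactory receptor gene Olfr1340 (chr4:118723001-118724250) held 23 and 19 HA reads against 8 wild-type reads in both lists, 2.04-fold and 1.36-fold. On chromosome 1, chr1:103032386-103038740 held 16 HA against 12 wild-type reads in mouse 1, and 2 regions of mouse 2 over it held 42 HA against 6 and 17 HA against 8 wild-type reads. The scaffold 4_JH584294_random held 23 HA against 6 wild-type reads in mouse 1, with 16 against 5 in mouse 2, 2.71-fold and 1.83-fold.

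Regions with identical ends in both mice allowed a test across libraries with limma on log2 counts. Over IgG, 92 regions were tested, of which 80.4% were higher and 0.0% lower at an adjusted p below 0.05. The single member among them, that on chromosome 8, did not pass, at 0.91 ± 0.60 on the log2 scale (SE), with an adjusted p of 0.151 by limma. The median of all 92 regions was 3.07. Called members were thus 0 of 1, and the count at an unadjusted p under 0.05 was also 0. With median-of-ratios size factors in place of the list medians, the same region was lower in HA than in IgG by a log2 difference of -2.12 and was called (limma, adjusted p = 0.0268), so the direction over IgG rested on the scale. Over wild type, 98 regions were tested against the single wild-type library, and 11.2% were higher and 24.5% lower at an adjusted p below 0.05. That library's own spread was not measured and was assumed to equal that of the 2 HA libraries, with 1 residual degree of freedom, so these calls compare with 1 library and not with the genotype. Of 4 members, the chromosome 14 region was higher by 2.50 ± 0.25 (log2, SE; limma, adjusted p = 2.22e-05). The chromosome 8 region was lower by a log2 difference of -1.71 ± 0.27 (limma, adjusted p = 0.000455), as was chr6:3200601-3201400, with 10 and 8 HA reads against 14 wild-type reads, by -1.27 ± 0.44 (adjusted p = 0.0478). The last was lost when the libraries were scaled by the pooled ratio (limma, adjusted p = 0.351), and the Olfr1340 intron, at 0.68 ± 0.42 (adjusted p = 0.243), was called by that scale (adjusted p = 0.00247). Regions had been called for an HA signal before deposit, so these p-values are no independent evidence. Nothing in the labels says that replicates were separate preparations beyond their numbers, and p-values measure the spread between these libraries.

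In the reference annotations, 80 of the 449 unique members lay on an exon of GENCODE M21, 50 in an intron, 142 on a gene of RefSeq only and 177 (39.4%) in neither. M21 exons under members belonged to 35 regions on coding genes and 16 on long intergenic noncoding RNAs, and RefSeq placed 101 members on coding genes and 76 on long noncoding RNAs. Every region on an unplaced or unlocalised scaffold was a member in each list (8 of 8, 2 of 2, 5 of 5 and 19 of 19), because no gene was named there in the deposited annotation. M21 has a gene at 4, 1, 2 and 11 of them, such as the chemokine genes Ccl27 and Ccl21c, and Spry3, Tmlhe and Vamp7 on X_GL456233_random. That scaffold held 10 members of wild type mouse 2 with 14 HA reads and 1 wild-type read in all.

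Exons of M21 pseudogenes lay under 22 unique members, on 17 pseudogenes. Pseudogenes are mostly copies of other genes, but M21 lists Zfp862-ps as unitary, which is no copy. RefSeq placed 71 members on pseudogenes and 7 on transcribed ones, and the values below cover those on M21 exons only. Their transcripts were compared by blastn with coding transcripts of M21, and 16 of 17 had a match, 13 of them at 90% identity or more. Identity covers the aligned part only. Among the 13, the match spanned 25.7% of Zfp862-ps and 40.3% of Gm9077. The copied genes included Gapdh of glycolysis (Gm16374, 98.7% identity), the heat shock protein gene Hspa8 (Gm6210, 98.6%), the elongation factor gene Eef1a1 (Gm6392, 92.9%), the ribosomal protein gene Rps25 (Gm6988, 97.6%) and Lgi1, which encodes a secreted synaptic protein (Gm3888, 99.9%). A further one was Gm5182, a copy of the lipid synthesis gene Acaca at 99.2%. Gm5182 had 11 HA reads in mouse 1 with 3 IgG and 10 wild-type reads, and 9 in mouse 2 with 7 IgG and 12 wild-type reads. Every interval of its fold included 1, so these reads give no direction. The intervals were 0.335 to 7.07 and 0.450 to 4.29 over IgG, then 0.300 to 2.05 and 0.159 to 1.11 over wild type. Gm6392 held 9 HA reads in mouse 2 with 0 IgG and 1 wild-type read. Members on these exons held 39, 43, 64 and 55 HA reads in all against 19, 49, 36 and 24 control reads. Reads of 50 bases can fit the copy and its source alike, and these values are uncertain for that reason.

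By the deposited annotation, the median distance to the nearest gene was 11187, 13399, 13862 and 14662 bp. Of the members with a gene named, 61 of 138, 34 of 83, 64 of 173 and 83 of 211 lay under 10 kb away, and 18, 8, 17 and 19 members lay within 1 kb. These 43 unique regions were small, with a median of 3 and at most 32 HA reads. Chosen after their values were seen, some lay at genes of synaptic function. A region 95 bp before Gphn, which encodes the inhibitory synapse scaffold gephyrin, held 4 HA reads against 1 IgG read in mouse 1 (chr12:78225841-78226560). One 553 bp after the synaptotagmin gene Syt10 held 3 HA reads in mouse 1 and 2 in mouse 2 over wild type, with 0 in the wild type. RefSeq places both on the gene itself.

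Of genes listed for the NMDA receptor complex, which the series title names, Shank3 was the only one nearest to a member. The region chr15:89498551-89499405, 218 bp before this postsynaptic scaffold gene and inside it by RefSeq, held 4 HA reads in mouse 2 with 1 IgG and 0 wild-type reads. Prox1, a granule neuron marker, was nearest to a region of 2 HA against 0 wild-type reads, 54732 bp away. None of 20 CYFIP1 partners and related transcripts and none of 8 long noncoding RNAs listed was nearest to a member, although 15 and 5 of them carried regions on the gene. Norad was not in that list. These reads are too few to show a difference from the control at this depth.

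Members gathered on the chromosomes that the lists covered. Chromosomes 1, 4, 6, 12 and 15 held 81.5%, 94.1%, 87.1% and 81.7% of members and 90.2%, 89.8%, 89.2% and 94.5% of all regions. On chromosome 4, members were 1.73%, 4.00%, 1.66% and 2.27% of the regions, and on chromosome 12 they were 4.64%, 4.47%, 4.65% and 4.48%. On chromosome Y, 4 of 7, 5 of 12 and 11 of 23 regions were members in IgG mouse 1 and the wild-type lists, and IgG mouse 2 had no region there.

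**Figure D5:**
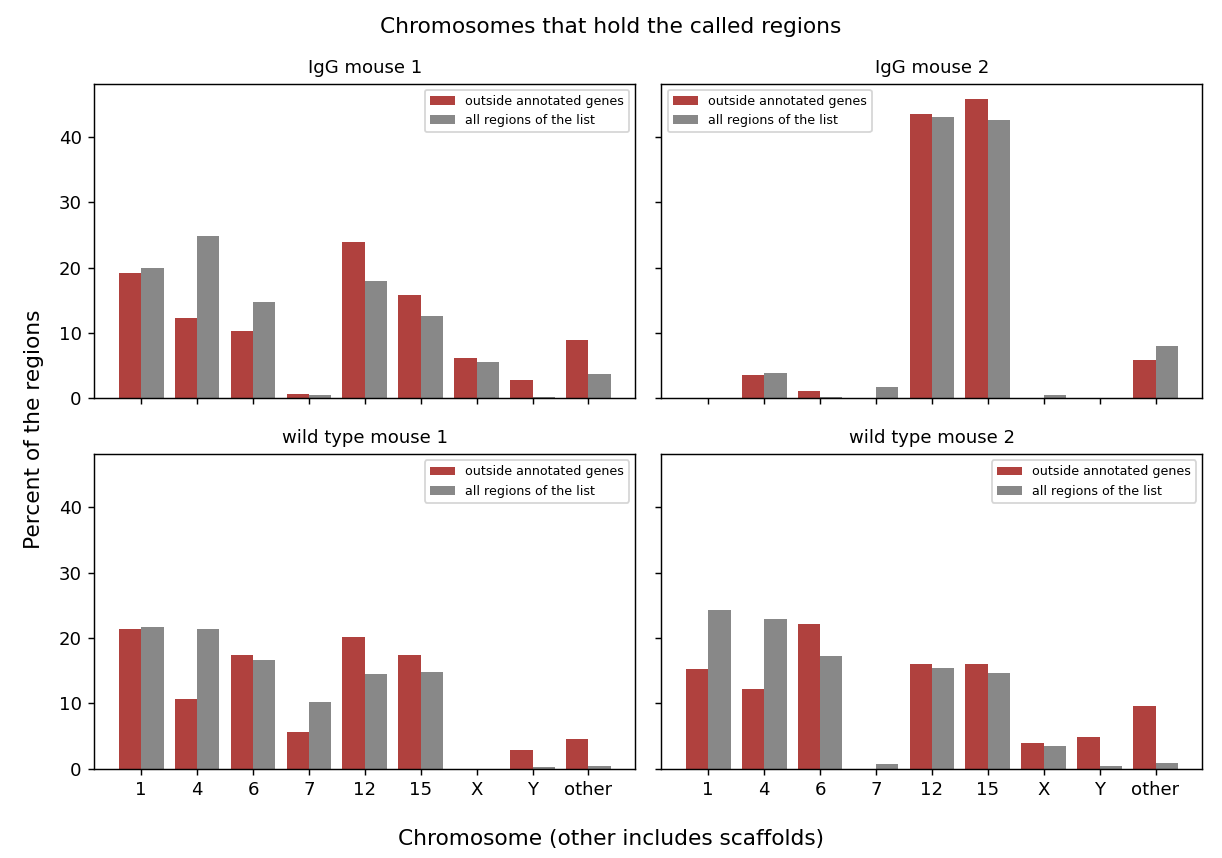
Percent of members (red) and of all regions (grey) on each chromosome in the 4 lists. IgG mouse 2 has nearly all of its members on chromosomes 12 and 15 (43.5% and 45.9%), while the other lists spread over chromosomes 1, 4, 6, 12 and 15.

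Some members lay close together. With gaps of at most 200 kb there were 16 clusters of at least 4 places, of which 7 are described, chosen after their values were seen. Regions were called separately in each list, so the summed reads below move with the length called and no fold is given. On chromosome 1, 11 places stood in 245 kb (chr1:102150271-102394835). They held 50 HA against 8 IgG reads in mouse 1, 85 HA against 12 wild-type reads in mouse 1, with 56 against 15 in mouse 2. IgG mouse 2, which had no region on chromosome 1, had none there. A second group of 10 places at chr1:102931731-103293350 held 41 HA against 2 IgG reads in mouse 1, and 34 HA against 15 (mouse 1) and 115 against 25 (mouse 2) wild-type reads. On chromosome 6, 8 places at chr6:47651801-47876200 around Rny3 held 55 HA against 5 IgG reads in mouse 1, 12 against 0 in mouse 2, and 99 HA against 36 (mouse 1) and 67 against 33 (mouse 2) wild-type reads. The cluster beside Gm2035 (chr12:87901801-88032480, 4 places) held 44 HA against 13 control reads, 56 against 34, 16 against 7 and 56 against 8 in list order. Summed HA reads were above control reads in these 4 clusters, in each list with a member there. Beside Gm2035, the sum over IgG in mouse 2 rested on the Gm2035 region, with 31 HA against 0 IgG reads. The other members there went the other way, with 12 against 20 and 13 against 14. Most single members also held more HA than control reads, and regions had been called for an HA signal. HA reads did not exceed control reads in 4 of 146, 22 of 85, 7 of 178 and 10 of 230 members. Among all regions of the lists this held for 173 of 4191, 782 of 1920, 725 of 5355 and 537 of 5362. The difference was not tested. In other clusters the controls held more or nearly as many. The 5 places at chr12:24682801-24816600 held 17 HA against 59 IgG reads in mouse 2, but 17 against 1 wild-type read. At chr15:85653331-85690095, 4 places held 25 HA against 34 IgG reads in mouse 2, with 14 against 3 over wild type. The 5 places of the scaffold 4_GL456350_random held 34 HA against 29 IgG reads in mouse 1, with 39 against 12 over wild type in mouse 2.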

How the data were processed

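RNA immunoprecipitated from hippocampus was sequenced in 5 libraries, with 50 cycles single-end per the labels' protocols. The submitters' processing notes name TopHat, TopHat2, GRCm38 and mm10; rtracklayer 1.28.9 wrote the lists per the file headers, and for the region caller the sources used here give no name. The deposited attribute column holds other values per region: unscaled read numbers of both libraries and the authors' p-values. Depth per sample is unknown.

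Reads, folds and 95% Clopper-Pearson intervals were computed with Python 3.11.15; where the control had 0 reads, 3 counts (the floor per region and list) took its place, and at least 20 reads were asked for folds. Regions with identical ends and at least 20 reads were tested with limma 3.58.1 in R 4.3.3, with a mean-variance trend, on log2(count + 0.5), scaled by list medians, with Benjamini-Hochberg adjustment at 0.05. IgG libraries were set level by their median log2 difference; the wild-type value was the mean of both lists. A count-based test had been planned but was not run. The test was tested on simulated data; the trend was added because of that check, after the calls of a first fit without it had been seen. HA libraries of both mice differed over 122 identical regions of the wild-type lists (chi-square p = 1.16e-06). Over 96 of the IgG lists they did not differ detectably (chi-square p = 0.583), and they were counted as 2 samples. The IgG libraries differed over 58 regions (chi-square p = 4.92e-15). Wild-type reads also differed between the lists over 100 regions (chi-square p = 1.85e-05), although both lists name the same library. Same-numbered HA and IgG libraries come from the same knock-in number in the labels; their deviations had a correlation of -0.0383 over 92 regions. Members overlapped by at least 1 base were compared between mice. Genes were taken from GENCODE M21 (GRCm38) and RefSeq (GRCm38.p6).

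Named regions were the overlapping pairs with at least 20 reads in both mice, up to 12 per control, the 5 highest and 5 lowest folds per list, members passing limma and members nearest to listed genes. Members, lists and limits were chosen with earlier results of these data known. Alternatives were other scales, read minimums, overlaps, annotation, the authors' false discovery rate, the replicate block and leaving out libraries.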

Additional observations from a re-analysis of the deposited data

How the results depend on the processing

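Of 81 alternative values, 55 stayed within 1.5 times, or within the interval, of the value given. Requiring regions to lie outside every gene of GENCODE M21 left 47 members in IgG mouse 2, and 0 of them at 0.25-fold or less. An empirical false discovery rate below 10% in the authors' deposited table left 8 members (5.48%) in IgG mouse 1, 87 (48.9%) in wild type mouse 1 and 120 (52.2%) in wild type mouse 2, beside 4.25%, 48.2% and 48.0% of all regions, and in both mice 3 overlapping members over IgG and 16 over wild type. An overlap of at least 50% of both regions left 10 and 24. Under the pooled ratio, the median fold was 0.370 in IgG mouse 2 and 2.44 in wild type mouse 2, and that of IgG mouse 1 was 0.947, on the other side of 1. The median of IgG mouse 2, 0.786, was 1.36 with at least 10 reads, 2.10 with at least 50 and 1.32 outside M21 genes, and that of wild type mouse 2, 1.29, was 0.787 with at least 50. The same scale gave 1 member at 4-fold in IgG mouse 2 and 5 in wild type mouse 1, and at 0.25-fold or less 1 in IgG mouse 1, 5 in IgG mouse 2 and 0 in wild type mouse 2. With a minimum of 10 reads, IgG mouse 1 had 1 member at 4-fold and 1 at 0.25-fold or less, and wild type mouse 2 had 16 at 4-fold. With a minimum of 50 reads, 0, 1 and 1 members reached 4-fold in IgG mouse 2, wild type mouse 1 and wild type mouse 2, 1 pair did so in both mice over wild type, and 0 stood at 0.25-fold or less in IgG mouse 2 and wild type mouse 2.

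With median-of-ratios size factors, limma called 1 member over IgG. Without the mean-variance trend, an alternative added after seeing the data, it called 0 members over IgG and 3 over wild type. The replicate block, with the mouse number as a term, called 0 members over IgG, and leaving out 1 library at a time gave 0 to 0; over wild type no library was left out, since no residual degrees of freedom would remain. The planned count models, with their own scales, were not run. The median-of-ratios factors were computed directly. The cause of these changes was not tested. Few reads limit the precision: at least 20 reads were present in 13.0%, 22.4%, 12.9% and 13.0% of members.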
